A study of Mus musculus with 8 samples.

Results

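The transcriptome of the epididymal duct of mouse embryos at E18.5 was described from the 4 control libraries of a study of 8, numbered 1, 3, 4 and 6 in their labels. The controls carried 1 wild-type and 1 floxed allele of Ptk7, with the T-Cre transgene and the mT/mG reporter (membrane Tomato and membrane EGFP). They are therefore not wild-type mice: cells in which the recombinase, driven by regulatory sequence of the mesoderm gene T, has acted are left with a single intact Ptk7 copy. The other 4 libraries, from conditional knockout embryos, enter no value given here. RNA sequencing yielded 25466675, 29590547, 28560271 and 27195173 counts over genes in controls 1, 3, 4 and 6, and this order is kept wherever 4 values follow each other. Levels between genes are given in TPM, the counts of a gene per base of its exons, scaled to the same total in each library, and ± is the SD over the 4 controls (n = 4). Whether each library is a separate embryo or litter is not stated in the labels, and the spread given here may be partly technical.

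Control 3 stood apart from the others. The median gene differed by 0.12 to 0.13 on the log2 scale between any 2 of controls 1, 4 and 6, and by 0.22 to 0.24 between control 3 and each of them. The shares, counts and spread that moved most with it are given with and without it, and single genes by all 4 values.

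The epididymis is the long coiled tube in which sperm mature. It forms from the Wolffian duct, an epithelial tube of the intermediate mesoderm that persists in males under androgen acting first on the mesenchyme around it. Towards birth the duct lengthens and coils inside a sheath of mesenchyme, part of which becomes smooth muscle, while most of the secretory programme of the adult organ is switched on only after birth.

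On the TPM scale the most abundant gene was not protein-coding but a locus of 57 bases, Gm23935, annotated as a miRNA gene on chromosome 16 (GRCm38 chr16:11144125-11144181, plus strand). It stood at 84814, 58142, 100546 and 62325 TPM. Gm24187 (chr13:9834469-9834525, minus strand) and Gm24270 (chr9:56223715-56223771, minus strand), also of 57 bases, had 3534 ± 1042 and 3171 ± 752 TPM. Their transcripts, read from GENCODE M21, are shown because 3 loci on 3 chromosomes carry almost the same letters, so reads can be assigned between them only where they cover flanking sequence or the 1 differing base. That base, in capitals, is the substitution G11A, the base of Gm23935 first, with positions counted from 1 at the 5′ end. Other places in the genome with these letters, ribosomal DNA included, were not searched, so the origin of the reads is not settled by the name of the locus.
Gm23935: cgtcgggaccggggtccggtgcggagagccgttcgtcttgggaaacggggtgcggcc
Gm24270: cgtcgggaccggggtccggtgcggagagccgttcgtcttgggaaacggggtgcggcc
Gm24187: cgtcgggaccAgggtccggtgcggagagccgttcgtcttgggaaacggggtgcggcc

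The hairpin gene Mir6236 on chromosome 9 (chr9:110281287-110281409, plus strand, 123 bases) was the other miRNA gene among the most abundant, at 10132, 2075, 9743 and 8762 TPM. Control 3 was the low sample, and the other 3 controls lay close together. Its mature miRNA is shown from RefSeq (GRCm38.p6, chr9:110281353-110281371, plus strand) with the seed, bases 2 to 8, in capitals.
mmu-miR-6236: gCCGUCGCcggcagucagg
A fragment counted at such a locus overlaps the annotated gene and is not a measure of the mature miRNA, which is too short for a standard mRNA library. Genes under 200 bases numbered 6408 of 46517, and dividing by so short a length raises their TPM. On the scale of counts, which does not divide by length, all miRNA genes together held 0.279 ± 0.0767% of the library, against 9.22 ± 2.46% of TPM.

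Of the 46517 genes in the file, 14153 reached 1 TPM in every control, and 12403 of these were among the 21547 protein-coding genes. Counts of list members at 1 TPM, given below, are to be read against that share. At least 10 TPM in every control was reached by 8146 genes, 100 TPM by 1194 and 1000 TPM by 110. There were 21438 genes with no read in any control. One read in a gene of 1000 bases equalled 0.0703 to 0.0816 TPM. The 100 most abundant genes held 38.4%, 38.7%, 38.5% and 37.4% of TPM and 250 genes held 50% of it. Protein-coding genes took 66.3 ± 0.971% of TPM and 92.5 ± 0.279% of counts. Processed pseudogenes, which are intronless copies of mRNAs in the genome, took 22.4 ± 1.34% of TPM and 5.81 ± 0.302% of counts.

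**Figure D1:**
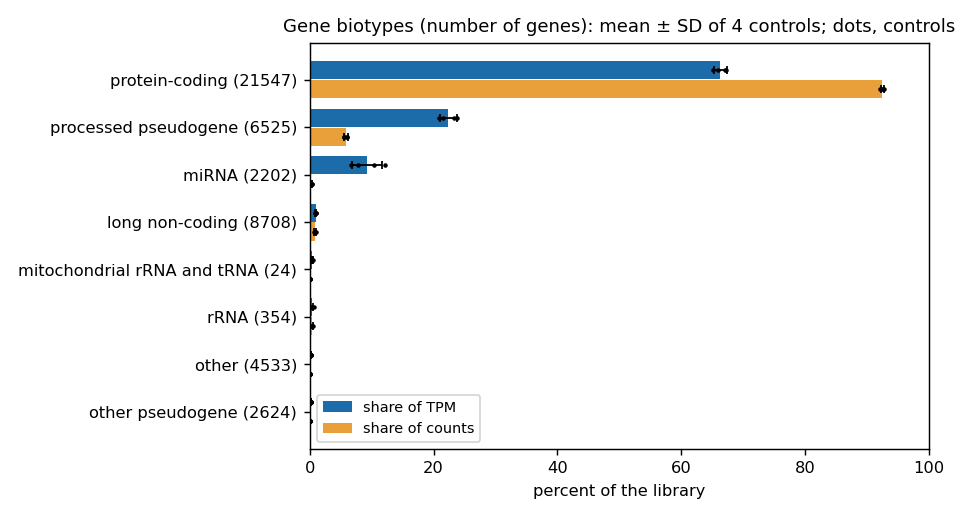
Share of the library held by each class of gene, on the x axis in percent, as share of TPM (blue) and share of counts (orange), with bars for the mean, error bars for the SD of the 4 controls and dots for single controls. Protein-coding genes hold 66.3% of TPM but 92.5% of counts, while processed pseudogenes and miRNA genes, which are short, hold more on the TPM scale.

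Among the 25 nuclear genes with the highest mean TPM, 12 were processed pseudogenes, 3 were miRNA genes, 1 was an rRNA gene, 1 was a long non-coding RNA and 8 were protein-coding genes with several exons. Among these 8 were Eef1a1, Rplp1, Rpl8, Lgals1, Rplp0, Rps15 and Rpl4. Eef1a1, the elongation factor that brings aminoacyl-tRNA to the ribosome, led them at 9387, 11356, 9934 and 10977 TPM. Lgals1, the secreted lectin galectin-1 that is abundant in mesenchyme, stood at 3650.1, 4796, 4013 and 4173 TPM and was the one protein-coding gene of the 8 with no role in translation. The non-coding RNA was H19, the imprinted transcript next to Igf2, at 3866, 2099.8, 3589 and 4090.4 TPM, with control 3 lowest. The second most abundant nuclear locus, Tpt1-ps3 at 11324 ± 1063 TPM, is a copy of Tpt1, itself at 409 ± 38.7 TPM. The rRNA gene CT010467.1 on chromosome 17 varied nearly as widely as Mir6236, at 3511, 6427, 2007 and 1339.9 TPM, and control 3 was the high sample.

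Below the ribosome, the most abundant protein-coding genes with several exons included those of contractile and matrix-forming cells. Acta2, the smooth muscle actin, stood at 2799, 3073, 2522 and 2309 TPM. Sparc, a collagen-binding matrix protein, was even across the controls at 2243, 2249, 2225 and 2308 TPM. Next to them were Eef2, a translation factor (2826 ± 400.3 TPM), Tmsb4x, which holds monomeric actin (2167 ± 199.6 TPM), and Hsp90ab1, a cytosolic chaperone (2104 ± 71.9 TPM). Fth1, the heavy chain of ferritin, had 1898 ± 164 TPM and Cfl1, which severs actin filaments, 1819 ± 69.6 TPM. Glul, glutamine synthetase, was at 1663 ± 91.7 TPM. Fth1 and Glul are in none of the lists used here and were named after their values were seen, as were the other genes outside the naming rule given with the methods.

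Marker lists were set beside the label of the tissue. They were chosen with earlier results of these data known, so they describe the samples and are no independent check of the label. All 33 markers of duct epithelium reached 1 TPM in every control, and 26 had a mean of at least 10 TPM. Keratin 18 (Krt18) was highest at 304, 261, 329 and 287 TPM, followed by the adhesion molecule Epcam at 279, 297, 278 and 251 TPM and Krt8, the partner of Krt18, at 290, 195, 305 and 255 TPM. Cdh16, a cadherin of kidney and Wolffian duct epithelium, had 134 ± 17.4 TPM and the tight junction protein Cldn6 124 ± 25.1 TPM. The regulators that make Wolffian duct from intermediate mesoderm were present at lower levels: Lhx1 at 19.96 ± 3.34 TPM, Pax8 at 7.71, 8.70, 8.61 and 6.42 TPM and Pax2 at 6.77, 7.49, 9.96 and 5.90 TPM. The epithelial list summed to 2249, 2134, 2349.7 and 2018 TPM, so its highest sample exceeded its lowest by less than 1.5-fold.

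The summed TPM of the mesenchyme list and that of the smooth muscle list exceeded the sum of the epithelial list in every control, although such sums depend on the genes each list holds. The 25 genes of the fetal mesenchyme list summed to 5479.6, 4480.5, 5062 and 4646 TPM and 24 of them reached 1 TPM in every control, the exception being Tbx18. Its leading genes were the type I and type III collagens, described below, and Tcf21, a mesenchymal regulator of urogenital organs, at 639.9, 578, 579.5 and 623 TPM. Osr2, a zinc finger factor of urogenital mesenchyme, stood at 218, 247, 209 and 237 TPM and Pdgfra, the receptor for PDGF-A on fibroblasts, at 158, 186, 143 and 153 TPM. The smooth muscle list of 20 genes summed to 6346, 6106, 5861 and 5475 TPM. After Acta2 came the myosin light chain Myl9 at 1220.4, 1041, 1058 and 1037 TPM and the actin-binding Tagln at 1007, 916, 1032 and 937 TPM. The myosin heavy chain Myh11 stood at 86.5, 48.7, 58.3 and 57.7 TPM and the calponin Cnn1 at 76.7, 55.1, 68.0 and 60.6 TPM. Both lay around the list's median of 61.2 TPM. Of the 20 genes, 17 reached 1 TPM in every control and 2 were under it in every control. Pln, which restrains the calcium pump of mature muscle, was one of the latter, at 0.0658, 0.0851, 0 and 0 TPM. In a bulk sample, fewer cells of a type and less RNA per cell cannot be told apart, so these sums are not cell numbers.

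**Figure D2:**
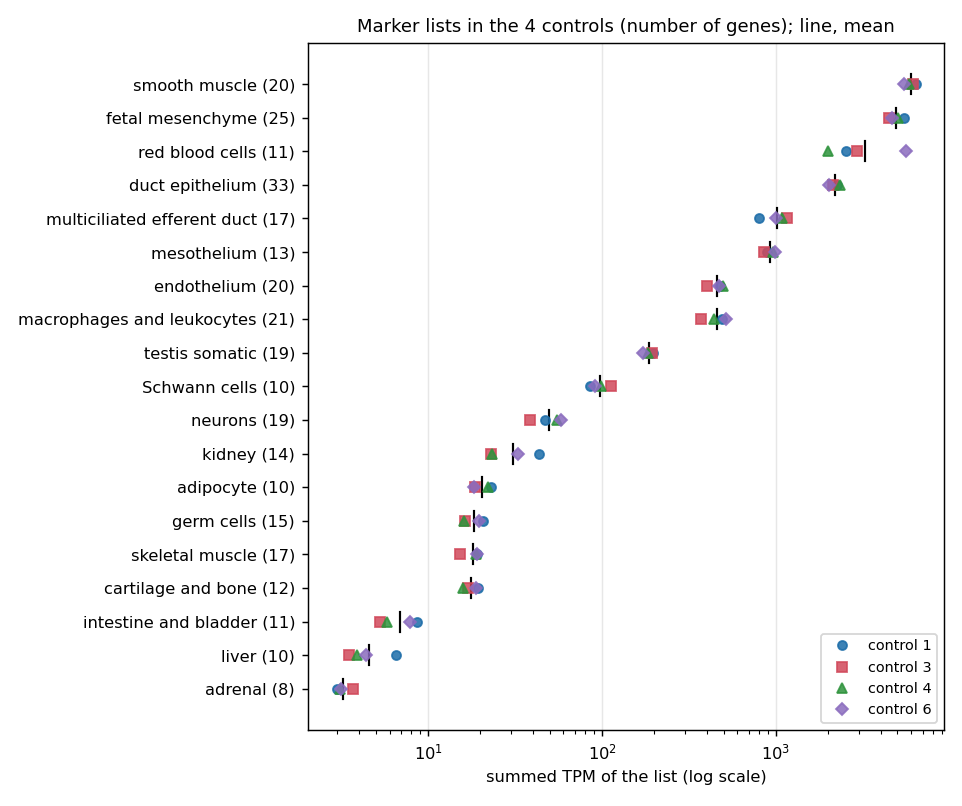
Summed TPM of each of 19 marker lists (number of genes in brackets) on a log axis, with 1 point per control and a line at the mean. Smooth muscle and fetal mesenchyme lie highest, duct epithelium lies between 2018 and 2349.7 TPM, red blood cell genes differ between controls, and liver and adrenal markers lie below 10 TPM.

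Markers of other cells of a fetal organ were also present. Mesothelium, the covering layer of the genital tract, had all 13 markers at 1 TPM or more, led by Aldh1a2, which makes retinoic acid, at 370.3, 361, 377 and 365 TPM and Upk3b at 118, 139, 146 and 151 TPM. Wt1, a mesothelial and gonadal transcription factor, was at 29.6, 29.8, 29.1 and 27.8 TPM. Endothelium had 19 of 20 markers at 1 TPM or more and a sum of 461 ± 40.8 TPM, with Eng, a TGF-beta co-receptor, at 74.7 ± 3.47 TPM and the vascular cadherin Cdh5 at 52.6 ± 3.24 TPM. Prox1, which marks lymphatic endothelium, was under 1 TPM. Macrophages and leukocytes summed to 457 ± 64.2 TPM over 21 genes, led by the complement genes C1qb at 75.8, 63.1, 72.7 and 87.0 TPM and C1qa at 74.7, 38.1, 73.2 and 85.2 TPM, while Cd3e of T cells was under 1 TPM in every control.

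Red blood cell genes varied most of all lists. They summed to 2516, 2936, 1991 and 5616 TPM, and control 6 was the high sample. The adult beta globin Hbb-bs stood at 1172, 1414, 902 and 2839 TPM and the alpha globin Hba-a1 at 1029.7, 1239.9, 848 and 2236 TPM. Both have near-identical partners (Hbb-bt and Hba-a2), so the split between them is uncertain. The embryonic globins Hbb-y and Hbb-bh1 had no read in any control. With 4 of 5 genes of at least 10 mean TPM differing 2-fold or more between controls, the list is set against a background of 4.12% over all 8741 genes at that level.

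Markers of neighbouring organs were low. Under 1 TPM in every control were 12 of 15 germ cell genes, 14 of 17 skeletal muscle genes, 13 of 19 neuronal genes, 10 of 14 kidney genes, 8 of 10 liver genes and 6 of 8 adrenal genes. Of the testis list of 19 genes, 9 were under 1 TPM in every control. The hormone that removes the Müllerian duct, Amh of Sertoli cells, stood at 0.147, 0.127, 0.131 and 0.411 TPM. Insl3, a Leydig cell hormone, stood at 0.131, 0, 0 and 0 TPM. Exons of other genes cover 64.8% of the exon bases of Insl3, so reads there cannot be assigned to it with certainty. Another 9 members of the list reached 1 TPM in every control. The highest, Clu at 120.2 ± 14.6 TPM, is a chaperone that epididymis and many other epithelia also express, and Ptgds, a prostaglandin D synthase, and Aard followed at 29.2, 18.6, 18.0 and 21.2 and 17.3, 12.5, 16.95 and 17.7 TPM. The steroidogenic genes Cyp11a1 and Star were at 2.77, 3.60, 3.23 and 2.69 and 1.26, 1.87, 1.36 and 1.28 TPM. Fxyd2, a subunit of the sodium pump in kidney tubules, led the kidney list at 36.2, 16.9, 16.8 and 27.4 TPM, with control 1 high, while the defining kidney genes Umod and Six2 were at 1.32 ± 0.403 and 0.110 ± 0.114 TPM. In the neuronal list Hand2, which is also a mesenchymal factor, was highest at 17.5, 9.69, 17.7 and 17.03 TPM. Cryab, a small heat shock protein that muscle also expresses, made up most of the Schwann cell list at 72.8 ± 9.08 TPM, whereas Sox10 was at 1.13 ± 0.530 TPM. Of the 10 genes of that list, 5 reached 1 TPM in every control and 3 were under it in every control.

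Y-linked genes were expressed in all 4 controls. Ddx3y, a Y-linked RNA helicase, stood at 31.2, 31.5, 32.2 and 35.3 TPM and Eif2s3y, a Y-linked translation factor, at 17.3, 13.1, 14.5 and 18.3 TPM. Uty and Kdm5d, Y-linked histone demethylase genes, were at 4.22 ± 0.212 and 2.67 ± 0.238 TPM. Xist, the RNA that coats an inactive X chromosome, was at 0, 0, 0.0244 and 0 TPM, and Sry, Zfy1 and Zfy2, which act in the gonad and germ line, had no read in any control. Usp9y was at 0.00217 ± 0.00434 TPM.

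Oestrogen receptor alpha (Esr1) stood at 8.51, 9.70, 8.69 and 9.02 TPM, against 0.120 ± 0.0713 TPM for oestrogen receptor beta (Esr2). Of 49 nuclear receptors, 28 reached 1 TPM in every control and 17 were under 1 TPM in every control. The 28 are near the share of all protein-coding genes, 12403 of 21547, and nothing is read from them. The orphan receptor Nr2f2 (COUP-TFII), which acts in mesenchyme against Wolffian duct survival in females, was highest at 108, 113, 99.5 and 95.2 TPM. Thyroid receptor alpha (Thra) followed at 98.7, 64.1, 99.7 and 108 TPM and Nr2f6 at 77.6, 26.8, 72.1 and 71.4 TPM, both lowest in control 3. Exons of another gene cover 54.4% of the exon bases of Nr2f6, so its reads cannot be told apart from those of that gene. Retinoic acid receptors alpha, beta and gamma stood at 21.7 ± 1.15, 17.3 ± 1.54 and 22.0 ± 3.40 TPM. Among steroid enzymes, Srd5a1, a 5-alpha reductase that makes dihydrotestosterone, was at 11.5, 16.1, 10.8 and 12.3 TPM, while Srd5a2, the other isoenzyme, was at 0.287, 0, 0.426 and 0.356 TPM. Hsd17b3, which makes testosterone in the testis, had no read in any control. The steroid enzyme list was led by Hsd17b10, a mitochondrial dehydrogenase of wide distribution, at 251 ± 11.7 TPM, then Hsd17b12 at 106 ± 11.6 TPM and Hsd17b4 at 56.3 ± 3.33 TPM.

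Extracellular matrix genes, 106 in 4 lists, held 2.11%, 1.82%, 1.98% and 1.97% of TPM. Fibrillar collagens were carried by 3 genes. Col1a1 and Col1a2, the chains of type I collagen, stood at 1638, 1312, 1537 and 1321 TPM and 958, 702, 868 and 748 TPM. Col3a1, the type III collagen of soft tissue, stood at 1310.3, 884, 1181 and 1033 TPM, with control 3 lowest in the list's sum of 4339, 3186, 3978 and 3455 TPM. The cartilage collagen Col2a1 was at 0.284 ± 0.0894 TPM. Beaded filament collagen VI was next, with Col6a1 at 1072, 784, 1013 and 983 TPM, Col6a2 at 762, 529, 705 and 694 TPM and Col6a3 at 97.7 ± 13.4 TPM.

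Some genes of matrix glycoproteins and proteoglycans reached levels near those of the collagens. Decorin (Dcn), a proteoglycan that binds collagen fibrils, stood at 1541, 1604, 1506 and 1724 TPM. The microfibril proteins Mfap2 and Mfap4 stood at 1173 ± 76.8 and 912 ± 96.5 TPM, and Igfbp7, a secreted IGF-binding protein, at 977, 622, 969 and 891 TPM. Eln, elastin, ranged widely at 210.3, 84.1, 208 and 259 TPM, and Emilin1, which lies on elastic fibres, at 242, 89.0, 212 and 225 TPM. Control 3 was the low sample for both, and without it their lowest and highest samples differed by less than 2-fold. Fibronectin (Fn1) had 82.0 ± 14.2 TPM and tenascin C (Tnc) 14.01 ± 4.60 TPM. In basement membrane, the type IV collagen chains Col4a1 and Col4a2 stood at 374 ± 39.9 and 177 ± 35.7 TPM and nidogen 1 (Nid1) at 231 ± 28.8 TPM. The laminin chains Lamc1 (85.2 ± 8.95 TPM) and Lamb1 (58.1 ± 7.16 TPM) exceeded the epidermal chains Lama3 (0.655 ± 0.0977 TPM) and Lamb3 (0.694 ± 0.184 TPM), which were under 1 TPM in their means.

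Of the 37 genes listed for secretory folding and collagen processing, 36 were at 1 TPM or more in every control. The list is mixed and also holds general chaperones of the endoplasmic reticulum, such as Calr and Canx. The count is therefore not one of collagen machinery alone. Serpinh1 (HSP47), the chaperone specific to procollagen, stood at 1593, 1214, 1606 and 1419.6 TPM. P4hb, a subunit of prolyl hydroxylase, stood at 993, 1099, 1067 and 1020.4 TPM and Hsp90b1, a chaperone of the endoplasmic reticulum, at 892 ± 45.0 TPM. Among cross-linking enzymes, lysyl oxidase (Lox) had 201 ± 7.93 TPM and its relative Loxl1 151 ± 25.9 TPM. The list's sum varied little, at 9449, 9063, 9615 and 8662 TPM.

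The 79 ribosomal protein genes held 6.29, 6.61, 5.64 and 6.80 percent of TPM, the largest share of any list. Rplp1, an acidic protein of the ribosome's stalk, was highest at 6875, 7904, 6325 and 7329 TPM, and Rpl8 and Rplp0 followed at 4393 ± 679.7 and 3833 ± 1060.1 TPM. Ribosomes hold nearly all of these proteins in equal number, yet the range of the listed levels was wide. Rpl24 had 1.40 ± 0.467 TPM, Rpl23a 4.87 ± 0.919 TPM and Rpl5 5.03 ± 0.301 TPM. These low values are taken up below with the near-identical copies of the same genes. Translation factors held 2.29 ± 0.119% of TPM, and each of the 32 reached 1 TPM in every control.

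The 15 mitochondrially encoded genes held 4.54, 5.94, 4.06 and 4.31 percent of TPM, with control 3 highest. The mean share was 4.71% with control 3 and 4.30% without it. The cytochrome oxidase subunit mt-Co1 was highest at 11803, 15412, 11329.7 and 10799.9 TPM, then the complex I subunit mt-Nd1 at 9214, 11482, 7958 and 9803 TPM and mt-Cytb, of complex III, at 8772, 12260.4, 8305 and 8171 TPM. Other mitochondrial genes were listed far lower, among them mt-Co2 at 95.4 ± 14.2 TPM and mt-Atp6 at 62.3 ± 7.43 TPM. Copies of these on nuclear chromosomes had similar or higher levels: Gm28661 beside mt-Co2, 81.8 TPM, and Gm10925 beside mt-Atp6, 100.5 TPM. All 76 nuclear genes of the respiratory chain reached 1 TPM in every control, led by Cox8a at 1198 ± 131 TPM, Cox6a1 at 823 ± 53.5 TPM and Cox6b1 at 784 ± 86.8 TPM. In glycolysis Tpi1, triosephosphate isomerase, was highest at 989.7, 628, 904 and 945 TPM, with lactate dehydrogenase A (Ldha) at 869.7, 666, 761 and 724 TPM and pyruvate kinase (Pkm) at 769, 625, 753 and 739.7 TPM. The lowest of the 22 glycolytic genes was Gapdh, usually among the most abundant mRNAs of a cell, at 1.501, 0.919, 0.986 and 1.03 TPM. Gapdh had 19 near-identical copies at or above 1 TPM, which held 88.7% of the reads of that family, and the whole family still came to only 19.5 CPM (counts scaled to the library total, with no division by length).

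Cytoskeleton genes held 1.60, 1.84, 1.69 and 1.69 percent of TPM. Tmsb4x and Cfl1, named above, led them, and beta actin (Actb) stood at 1484, 2007, 1474 and 1405 TPM, with control 3 high. The tubulin Tubb5 had 1496 ± 160.3 TPM, whereas the neuronal tubulin Tubb3 had 0.265 ± 0.152 TPM. The intermediate filament vimentin (Vim) of mesenchymal cells was even, at 525, 529, 519 and 562 TPM. Cell cycle genes were present throughout: all 44 reached 1 TPM in every control, and their sum stayed within 4912 to 5149 TPM. Mki67, a marker of dividing cells, stood at 43.5, 52.5, 40.7 and 34.4 TPM and the mitotic kinase Cdk1 at 98.8, 132, 109 and 106 TPM. The highest member was an inhibitor, Cdkn1c (p57), at 1077, 511, 1010.5 and 1043 TPM, followed by Tuba1b at 854 ± 113 TPM and Cdk4, the kinase that drives cells out of G1, at 372 ± 14.8 TPM.

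Immediate early genes, which respond within minutes to handling of tissue as well as to growth factors, summed to 822, 608, 966 and 763 TPM. Jund stood at 215, 112, 295 and 222 TPM, Ier2 at 91.9, 51.7, 89.5 and 93.3 TPM and Jun at 75.02, 58.9, 101 and 59.0 TPM, while Fos was at 3.19, 3.08, 3.96 and 1.23 TPM and Fosb under 1 TPM in its mean. Control 3 was at least 1.5-fold below each other control for 5 of the 17 members with a mean of at least 10 TPM, Junb, Jund, Ier2, Ier5 and Socs3, against a background of 5.85% of genes.

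Genes listed as imprinted, which in at least some tissues are expressed from the maternal or the paternal copy, held 1.12, 0.822, 1.03 and 1.15 percent of TPM. The epithelial markers held 0.219 ± 0.0143%. H19 alone accounted for 3411 of the mean sum of 10297 TPM. Dcn, which is also counted among the matrix genes, accounted for 1594 TPM of that sum. Which copy of each gene was expressed here was not tested. Igf2, the fetal growth factor that shares its enhancers with H19, stood at 1504, 1007, 1406 and 1556 TPM. Cdkn1c, a maternally expressed growth inhibitor, has been given above. Dlk1, a paternally expressed membrane protein of immature mesenchyme, stood at 866, 631, 593 and 786 TPM, and Ndn, Mest and Grb10 at 392 ± 48.1, 373 ± 30.2 and 209.8 ± 23.8 TPM. Meg3, the maternal RNA of the Dlk1 locus, was only at 1.62 ± 0.226 TPM. Of 53 imprinted genes 43 reached 1 TPM in every control and 6 were under it in every control.

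Beyond H19, long non-coding RNAs were modest. The snoRNA host genes Snhg8 and Snhg18 led them at 104 ± 10.8 and 96.0 ± 21.2 TPM, and Gas5 had 52.5 ± 16.1 TPM. Malat1, a nuclear RNA that is abundant in most tissues, was at 4.79, 8.44, 3.14 and 3.31 TPM and Neat1, the scaffold of paraspeckles, at 0.126, 0.0474, 0.0771 and 0.124 TPM. Exons of other genes cover 13.8% of the bases of Malat1. A list of 28 genes whose RNA lacks a poly(A) tail, which leaves out the rRNA gene CT010467.1 given above, summed to 163 ± 9.41 TPM, led by the histone genes Hist1h1c (63.5 ± 8.64 TPM) and Hist1h2bc (30.4 ± 4.83 TPM) and by Rn7sk (19.9 ± 9.09 TPM).

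In the list of duct patterning transcription factors, 48 of 57 members reached 1 TPM in every control. The list is mixed and also holds Ybx, Hmga, Hmgb and Id genes, so this is not a count of positional genes alone. Highest were the RNA-binding Ybx1 at 651 ± 85.5 TPM and Ybx3 at 176 ± 8.09 TPM, and Gata2, a regulator of urogenital tract development, at 139, 126, 145 and 138 TPM. Its relative Gata3 was lower, at 11.4, 17.8, 15.4 and 10.2 TPM. Emx2, required for the Wolffian duct to persist, stood at 56.7, 54.9, 62.5 and 49.0 TPM. The HOX genes of the list, whose groups are numbered from head to tail, followed a graded order. The list starts at Hoxb7 and holds no gene of a group nearer the head. Groups 8 and 9 held the highest genes, among them Hoxc8 at 96.9, 83.4, 83.4 and 119.9 TPM and Hoxd9 at 69.3, 60.0, 86.1 and 54.7 TPM, with Hoxa9 an exception at 7.22 ± 0.317 TPM. Group 10 was intermediate, with Hoxa10, whose loss in mice gives the vas deferens features of the epididymis, at 25.3, 30.3, 32.3 and 15.2 TPM, Hoxc10 at 27.8, 29.1, 35.1 and 11.1 TPM and Hoxd10 at 11.5, 14.8, 17.1 and 4.77 TPM. Group 11 was lower, with Hoxa11 at 7.49, 4.52, 9.96 and 5.62 TPM and Hoxd11 at 6.22, 2.74, 7.26 and 3.50 TPM. Exons of other genes cover 35.0% of the exon bases of Hoxa11 and 10.8% of those of Hoxd11, so part of their reads is uncertain. Group 13, of the most caudal tract, was near 0: Hoxd13 had 0.0986, 0.113, 0.176 and 0.0918 TPM, and Hoxa13 had no read in any control.

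Control 6 was the lowest sample for all 3 group 10 genes. For Hoxc10 the next lowest control was 2-fold or more above it, and for Hoxd10 likewise. For the group 11 genes control 3 was lowest instead, so the order of samples was not the same across the caudal genes.

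**Figure D3:**
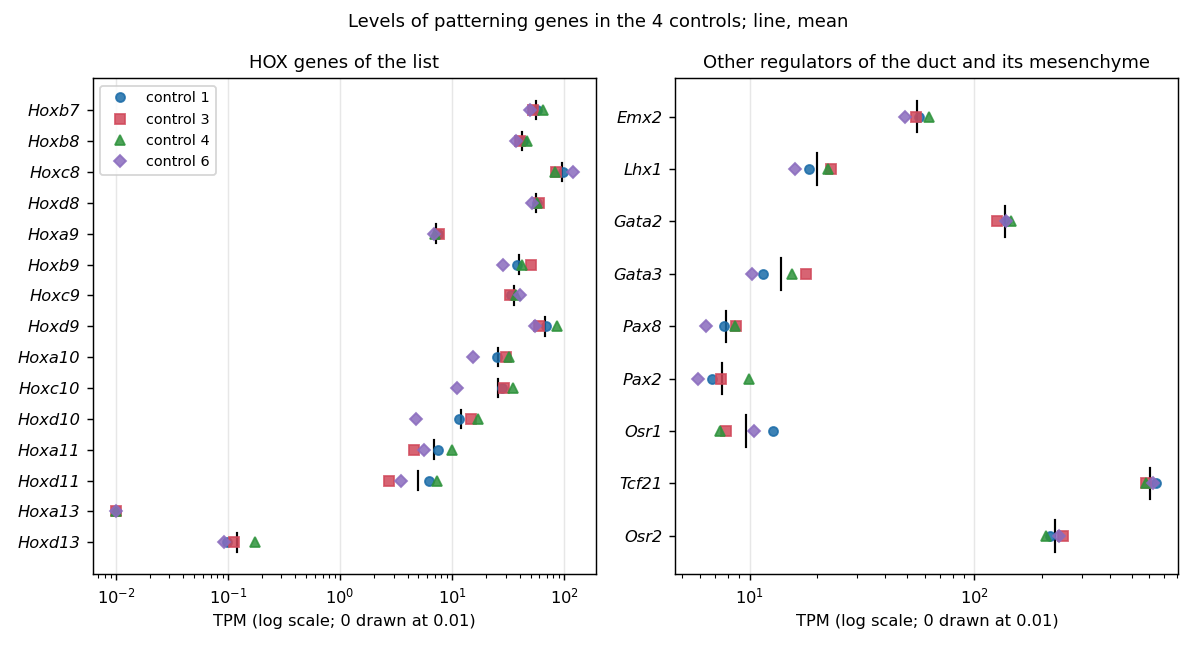
TPM on a log axis for the 15 HOX genes of the list (left) and 9 other regulators (right), with 1 point per control and a line at the mean. HOX levels fall from groups 8 and 9 (Hoxa9 apart) to group 13, and control 6 lies lowest for Hoxa10, Hoxc10 and Hoxd10, at 15.2, 11.1 and 4.77 TPM.

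Secreted signals covered the pathways known in duct growth and coiling, and 62 of 70 reached 1 TPM in every control. Proteins of the IGF system led the list: Igfbp2, an IGF-binding protein, stood at 1702, 991, 1678 and 1328 TPM, Igf2 has been given above, and Igf1 was at 37.4, 34.5, 28.6 and 41.6 TPM. The heparin-binding growth factor midkine (Mdk) stood at 1029, 626, 979 and 1070.3 TPM. Wnt5a, a ligand of the non-canonical WNT pathway in which Ptk7 acts, was the highest of the WNT genes at 216, 232, 213 and 211 TPM. Wnt6 stood at 122, 84.1, 132 and 105 TPM, and Wnt4 at 27.5 ± 3.76 TPM. Wnt9b, made by Wolffian duct epithelium, stood at 18.51, 16.8, 20.8 and 17.7 TPM and Wnt7b at 13.4 ± 2.09 TPM. WNT inhibitors and enhancers were also present, with Sfrp1 at 445, 339.8, 396 and 474 TPM and Rspo3 at 92.6 ± 8.38 TPM. Inhba, the activin A subunit required for coiling of the epididymal duct, stood at 46.5, 22.3, 58.0 and 50.2 TPM, with control 3 low. Shh, made by epithelium, stood at 29.6, 33.6, 38.4 and 25.4 TPM, and its mesenchymal targets Ptch1 and Gli1 at 78.2, 114, 91.3 and 71.5 and 36.3, 30.6, 39.5 and 40.9 TPM. Bmp4, a mesenchymal signal, was at 42.6 ± 7.59 TPM, Fgf10 at 9.41 ± 1.10 TPM and Gdnf at 2.33 ± 0.297 TPM. Fgf8 was under 1 TPM in every control and Fgf20 had no read.

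Most genes of the adult secretory programme were low, and some were not. Of 56 genes of the adult epididymal fluid, 35 were under 1 TPM in every control and 14 had no read. Among those under 1 TPM were Gpx5, a peroxidase of the adult head region (0.390, 0.462, 0.348 and 0.227 TPM), and Adam7 (0.357, 0.308, 0.358 and 0.395 TPM). Those with no read included Rnase9, Lcn6, Lcn9, Lcn10 and Crisp4, while Lcn8 and Lcn5, lipocalins of the adult head, were at 0.0270 ± 0.0540 and 0.0231 ± 0.0463 TPM. A further 12 members had a mean of at least 10 TPM. Of these the lysosomal protease Ctsl, the cholesterol carrier Npc2 and the milk fat globule protein Mfge8 are also used in many other tissues: Ctsl stood at 553, 498, 496 and 566 TPM, Npc2 at 215, 192, 211 and 239 TPM and Mfge8 at 198.9, 167, 196 and 179.9 TPM. The lipocalin Lcn2 at 175, 211, 168 and 165 TPM and the protease inhibitor Spink8 at 140.4, 215, 170.3 and 141 TPM lay near Mfge8. The others at that level were Clu, given above, the protease inhibitor family members Wfdc15b, Wfdc2 and Wfdc8 at 88.1 ± 12.2, 88.0 ± 5.19 and 20.9 ± 4.66 TPM, Ggt1 and Abcg2 at 33.0 ± 4.18 and 14.2 ± 1.35 TPM, and Ptgds. Crisp1, a sperm-coating protein, was at 5.47, 6.51, 4.99 and 6.28 TPM. The list's sum was even, at 1708, 1733, 1655 and 1682 TPM.

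Of 48 genes of epithelial ion and water transport, 29 reached 1 TPM in every control. This too is near the share of all protein-coding genes, 12403 of 21547. The sodium pump subunit Atp1b3 stood at 106 ± 11.8 TPM, and Slc9a3r1, a scaffold of the apical membrane, at 61.3 ± 11.4 TPM. The water channel Aqp1 was at 48.6, 25.5, 34.7 and 42.5 TPM, and Aqp9, the main one of the adult duct, at 1.06, 1.04, 0.580 and 1.01 TPM. Foxi1, the regulator of acid-secreting clear cells, had 4.12, 5.70, 4.82 and 3.22 TPM, while the proton pump subunit Atp6v1b1 of those cells had 0, 0, 0 and 0.0395 TPM. Markers of multiciliated cells, which line the efferent ducts, were divided. Of 17 markers, 8 reached 1 TPM in every control and 8 were under 1 TPM in every control, with a median of 1.06 TPM. Foxj1 stood at 11.2, 3.91, 9.96 and 7.97 TPM. That list's sum was set by Tuba1a, which most fetal cells express, at 967 ± 157 TPM.

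Many highly expressed genes shared their reads with near-identical copies. Of 1751 single-exon genes of at least 200 bases and 1 mean TPM, 1215 matched a mRNA over at least 80% of their length with at least 90% identity. Of the 1215, 1168 were annotated as pseudogenes, processed and unprocessed ones counted together. The copies held 5.57% of counts in the mean of the controls, from 5.30% to 5.84%. Of 656 families of at least 10 CPM, copies held more than 50% of the reads in 135, and in 40 of the 71 ribosomal protein families. Rpl5, a protein of the large ribosomal subunit, had 99.1% of its family's reads on copies, Rpl23a 99.1%, Rpl24 99.8% and Rpl12 97.5%. Exons of other genes also cover 62.3% of the exon bases of Rpl23a and 47.0% of those of Rpl24. Of their families' reads, Rps16 had 94.5%, Rpl3 88.7% and Tpt1 85.9% on copies. Ppia, the cyclophilin often used as a reference gene, stood at 2.26, 3.15, 2.32 and 2.34 TPM, and its copy Gm10123, which is identical over 490 bases, at 2672 TPM. Eef1a1 was little affected, with 13.2% on copies. With the reads of each copy added to its relative, the ribosomal protein share was 12.96% of TPM, against 6.33% as counted. Whether copies are themselves transcribed was not tested.

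The split between gene and copy also moved between controls. Ahcy, which recycles S-adenosylhomocysteine, is the clearest case, with 24.4, 3.11, 2.73 and 1.91 CPM alone but 127, 141, 139 and 132 CPM with its copies. Rpl30 had 79.7, 20.3, 16.4 and 81.0 CPM alone and 357, 346, 274 and 343 CPM with its copies. Of 31 relatives whose highest control was at least 2 times the lowest, 24 stayed under 2 times as a family. Rpl21 was an exception, at 268, 279.5, 129 and 25.4 CPM as a family, with control 6 low.

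**Figure D4:**
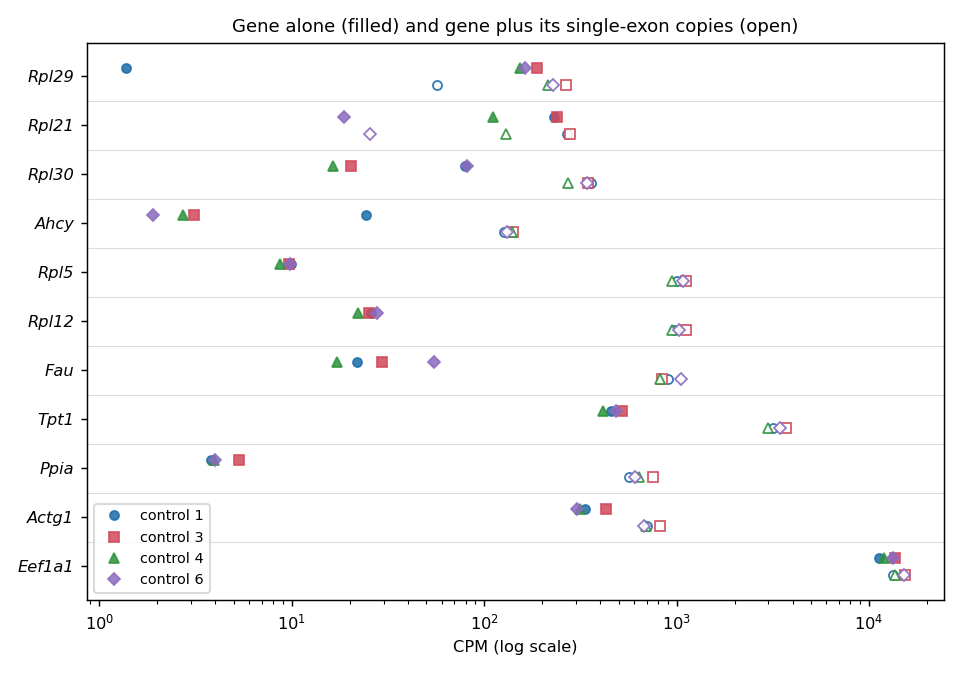
CPM on a log axis of 11 genes counted alone (filled points) and together with their near-identical single-exon copies (open points), with 1 colour and shape per control. The filled points of Ahcy and Rpl30 spread widely while the open points lie together, and for Rpl29 and Rpl21 the open points stay apart.

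The 4 controls ranked genes alike. Spearman's rho across 14888 genes, which are not independent replicates, was 0.988 to 0.989 between controls 1, 4 and 6 and 0.977, 0.981 and 0.975 between control 3 and controls 1, 4 and 6. The biological coefficient of variation, the spread between samples beyond counting error, was 15.8% over 15643 genes and 11.03% without control 3. It was 16.7% to 17.4% without any one of the others. Of 8741 genes with a mean of at least 10 TPM, 360, the 4.12% given above, had a highest control at least 2 times the lowest. The lowest sample was control 3 for 250 of these, and of the same 8741 genes 96 reached that ratio without control 3. Genes in copy families reached that ratio more often than genes outside, 6.88% of 1206 against 3.68% of 7535, a difference given with no test.

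The genes in which control 3 stood apart were rich in G and C. At least 1.5-fold below each other control it had 511 genes (5.85%), and at least 1.5-fold above each other control it had 21 (0.24%). The share of genes as far below each other control was 0.183% for control 1, 0.229% for control 4 and 0.263% for control 6. The share as far above was 0.149%, 0.0572% and 0.32% in the same order. In the top one of 5 equal groups of genes by GC content (55.5% to 80.3%) the median gene of control 3 lay at -0.31 on the log2 scale against the mean of the others. In the bottom group (27.5% to 44.0%) it lay at 0.18. The other 3 controls stayed between -0.07 and 0.13 in every group. High-spread genes with control 3 lowest had a median GC content of 58.1%, against 50.2% for all 8741. The GC content and the library moved together, and what set them was not tested.

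**Figure D5:**
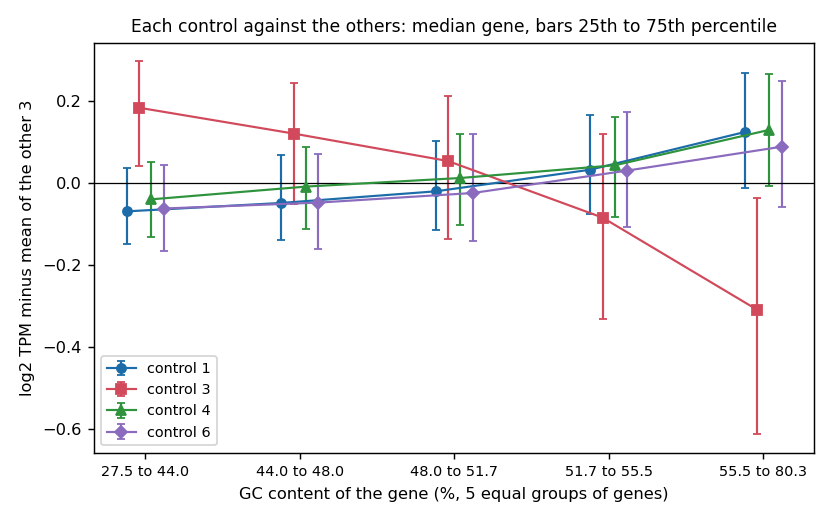
Median over genes of the log2 TPM of each control minus the mean of the other 3 (points; bars from the 25th to the 75th percentile), in 5 equal groups of genes by GC content. Control 3 falls from 0.18 in the lowest group to -0.31 in the highest, while the other controls lie between -0.07 and 0.13.

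Named members in which control 3 was low came from several lists. In the minor collagens these were 5 of 12 genes of at least 10 mean TPM, among them Col16a1 at 127, 45.4, 132 and 109 TPM, Col13a1 at 17.2, 4.41, 14.6 and 16.7 TPM and Col9a2 at 139.8, 23.1, 108 and 106 TPM. In nuclear receptors they were 4 of 15, with Esrra, an orphan receptor that controls mitochondrial genes, at 12.8, 2.91, 12.2 and 13.2 TPM and the retinoid X receptor Rxrb at 46.6, 20.4, 47.7 and 43.0 TPM. Over all genes the share was the 5.85% given above. The counts of 4 of 42 in secreted signals, 2 of 30 in imprinted genes (H19 and Cdkn1c) and 0 of 18 in both basement membrane and fetal mesenchyme are near that share, and nothing is read from them. In the nuclear respiratory chain it was 0 of 72.

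Outside the families of near-identical copies, Pabpn1 and Cd74 had the widest range of the genes with a usual name and at least 10 mean TPM. Pabpn1, the nuclear poly(A)-binding protein, stood at 16.1, 1.64, 14.9 and 15.4 TPM, with control 3 low. Cd74, the invariant chain of antigen-presenting cells, stood at 8.45, 4.64, 34.8 and 5.71 TPM, with control 4 high. Among processed pseudogenes, Rps2-ps13 had 6.38, 2.47, 6.85 and 1592 TPM, with nearly all of its reads in control 6, and Rps13-ps2 had 286, 9.47, 273 and 311 TPM, with control 3 low. Other genes hardly varied. Idh3b, a subunit of mitochondrial isocitrate dehydrogenase, was the evenest gene above 50 TPM, at 74.2, 74.6, 74.7 and 73.9 TPM. Next came Cxxc5 at 65.3, 66.1, 65.5 and 65.2 TPM, Gpx3, a secreted glutathione peroxidase, at 126, 126, 126 and 127 TPM and the zinc transporter Slc39a1 at 109.7, 110.2, 112 and 109.9 TPM. Slc35f5, Thumpd1, Med11 and Sorbs3 completed the 8 evenest genes, with ratios of highest to lowest of 1.02, 1.02, 1.02 and 1.03.

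Ptk7 itself, the gene whose allele differs from wild type in these embryos, stood at 91.9, 55.8, 154 and 81.9 TPM in the controls, with control 4 high and control 3 low, a ratio of 2.76 between them. It thus belonged to the 4.12% of genes that varied 2-fold or more, and without control 3 the ratio of highest to lowest was 1.88. Its exons have a GC content of 59.0%, within the group of genes in which control 3 was low.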

How the data were processed

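RNA sequencing of dissected epididymal ducts at E18.5 gave 8 libraries, of which the 4 labelled control were used, grouped by the condition in their labels. An RNeasy kit, TruSeq library preparation and a HiSeq 2000 instrument were used, per the labels' protocols. The authors deposited raw counts per gene, 1 column per library with no normalization, beside a length that equals the union of the exons listed for each gene in all 46517 genes. Per the submitters' processing notes, STAR and featureCounts were used on GRCm38. Software versions, strand setting, annotation and multi-mapping settings are not given in the sources used. Without the strand setting, overlapping genes cannot be told apart, which touches 16 of the 1195 listed genes over at least 50% of their exon bases.

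Ensembl identifiers gave a symbol for 46005 genes, and biotypes were taken from GENCODE M21 (GRCm38), with 512 genes unmatched. TPM was computed from counts and length over all genes, and CPM from counts alone. Of 1265 entries in 43 gene lists, 1247 were matched, 18 were not found, and 49 genes stood in at least 2 lists. Near-identical copies were found with BLAST 2.17.0. The biological coefficient of variation came from edgeR 4.0.16 with no group term, and the code was tested on simulated data. GC content was taken from transcripts of 14905 genes. Python 3.11.15 with pandas 2.3.3 and R 4.3.3 were used, with DESeq2 1.42.0 size factors as an alternative scaling. No test between groups was made, since there was 1 group; Dixon's criterion marked controls that stood apart, and total counts of 25466675 to 29590547 leave counting error small for all but low genes.

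The members and the lists were chosen with earlier results of these data known. The rule for named genes took the 25 nuclear genes with the highest mean TPM, the 3 highest members of each list, the 12 genes with a usual name and the widest range above 10 mean TPM, the 8 evenest genes above 50 mean TPM, the sex-linked list and Ptk7. Other named genes were chosen after their values were seen, and a few genes that the rule took are not reported here. Alternatives were CPM, a length reduced for fragments of 200 bases, totals without mitochondrial genes or without genes under 200 bases, other thresholds and scalings, and leaving out each control. Totals over protein-coding genes and the merging of copies were added after seeing the data.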

Additional observations from a re-analysis of the deposited data

Results flagged for a closer look

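A control counted as standing apart where its gap to the nearest other control took up most of the range of the 4 (Dixon's criterion for 4 samples). Chance flags about 1 in 20 such groups, and 43 lists and 160 named genes were examined, of which 3 lists and 15 genes were flagged. The rate of 1 in 20 is no yardstick for the named genes: 12 of them were chosen for a wide range between controls, and 5 of the 15 came from these 12 (Rps2-ps13, Rpl15-ps2, Rps13-ps2, Pabpn1 and Cd74). The flagged lists had control 3 lowest: secreted signals at 0.628% of TPM, steroid and nuclear receptors at 0.0512% and skeletal muscle at 0.00152%, the last near the limit of detection for most members.

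Control 3 was also the lowest sample for 8 of the 15 genes. It stood at 511 TPM for Cdkn1c, an inhibitor of the cell cycle, at 51.7 TPM for the immediate early gene Ier2, and at 26.8 TPM for the orphan receptor Nr2f6. It stood at 9.69 TPM for Hand2, at 12.5 TPM for Aard and at 1.64 TPM for Pabpn1. At the miRNA locus Mir6236 it had 2075 TPM, and at the pseudogene Rps13-ps2 9.47 TPM. It was the highest sample for mt-Cytb at 12260.4 TPM, for Actb at 2007 TPM and for Star, a low steroidogenic gene, at 1.87 TPM.

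Control 6 was highest for 2 pseudogenes of ribosomal proteins, Rps2-ps13 at 1592 TPM and Rpl15-ps2 at 240.1 TPM. Control 1 was highest for the myosin light chain Myl9 at 1220.4 TPM. Control 4 was highest for Cd74, the invariant chain of antigen-presenting cells, at 34.8 TPM.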

How the results depend on the processing

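Of 128 alternative values, 84 kept the reported value within the spread between controls or, for counts, within 1.5 times, and 44 did not. In CPM, the share of the 100 most abundant genes was 19.5%, the number of genes holding 50% of the total was 1073 and the number of the 25 top genes kept was 7. The shares were 3.96% for ribosomal proteins, 2.75% for mitochondrial genes, 1.99% for cytoskeleton, 1.73% for imprinted genes, 4.72% for matrix and 0.242% for duct epithelium. With a length reduced for fragments, the number of detected genes was 8422, the share of the 100 most abundant genes was 90.7%, the number of genes holding 50% of the total was 2, the number of the 25 top genes kept was 7 and the median log2 difference between controls was 0.28. The shares were 0.833% for ribosomal proteins, 0.605% for mitochondrial genes, 0.194% for cytoskeleton, 0.110% for imprinted genes, 0.210% for matrix and 0.0243% for duct epithelium. Without mitochondrial genes in the total, the share of the 100 most abundant genes was 36.4%. Without genes under 200 bases, the share of the 100 most abundant genes was 32.2%. The shares were 7.15% for ribosomal proteins, 1.93% for cytoskeleton, 2.23% for matrix and 0.248% for duct epithelium. Down to 1 mean TPM, the number of high-spread genes was 1533. At a ratio of 1.5, the number of high-spread genes was 1341. With protein-coding genes only (added), the share of the 100 most abundant genes was 29.9%, the number of genes holding 50% of the total was 496 and the number of the 25 top genes kept was 8. The shares were 9.54% for ribosomal proteins, 6.83% for mitochondrial genes, 2.57% for cytoskeleton, 2.98% for matrix and 0.330% for duct epithelium. With copies added to their relatives (added), the share of the 100 most abundant genes was 39.0% and the number of the 25 top genes kept was 16. The shares were 12.96% for ribosomal proteins, 2.15% for cytoskeleton, 1.19% for imprinted genes, 2.27% for matrix and 0.252% for duct epithelium. The reduced length gives genes shorter than a fragment a length of 1 base, so a few of them fill the total, and protein-coding totals hold fewer genes by construction. Leaving out 1 control at a time gave 38.1 to 38.5% for the share of the 100 most abundant genes, 245 to 252 for the number of genes holding 50% of the total and 23 to 25 for the number of the 25 top genes kept. The shares ran from 6.18 to 6.57% for ribosomal proteins, 4.30 to 4.93% for mitochondrial genes, 1.66 to 1.74% for cytoskeleton, 0.991 to 1.10% for imprinted genes, 1.93 to 2.02% for matrix and 0.213 to 0.224% for duct epithelium. It gave 0.12 to 0.20 for the median log2 difference between controls, 99 to 298 for the number of high-spread genes and 14248 to 14345 for the number of detected genes. With the level of 10 mean TPM recomputed, the number of high-spread genes was 99 without control 3 and 278 or more without any other control. It was 382 with TMM factors and 374 with DESeq2 size factors. Levels under 1 TPM rest on few reads. No paired analysis was possible because only the control group was used and no value came from a test.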

Other observations

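Genes of planar cell polarity and of the actomyosin machinery, chosen after their values were seen because the study's title names RAC1 and myosin II, follow as a description, with no fixed list behind them. The small GTPase Rac1 stood at 147, 193, 165 and 157 TPM and Rhoa, which activates myosin, at 94.6, 116, 100.2 and 95.01 TPM. The non-muscle myosin II heavy chains Myh10 and Myh9 stood at 89.6, 67.2, 87.9 and 80.3 and 52.5, 32.0, 48.2 and 41.0 TPM, with control 3 lowest for both. Prickle1, a cytoplasmic polarity protein, stood at 37.4, 29.3, 33.2 and 30.2 TPM and the membrane protein Vangl2 at 10.2, 10.8, 10.95 and 9.82 TPM. The cadherin Celsr1 stood at 15.3, 14.7, 16.9 and 12.9 TPM. Dvl1, Dvl2 and Dvl3, which relay Frizzled signals, stood at 15.9, 9.60, 15.4 and 13.4, at 24.2, 13.8, 23.3 and 22.6 and at 21.7, 15.1, 24.8 and 20.9 TPM and the polarity scaffold Scrib at 34.6, 22.5, 37.2 and 29.3 TPM, all lowest in control 3. Other genes examined with them went the other way, and control 3 was highest for Rac1 and Rhoa. It was also highest for Rock1 at 15.8, 16.3, 14.6 and 13.04 TPM and Rock2 at 14.99, 17.5, 15.7 and 13.96 TPM. The same held for Daam1 at 14.9, 18.9, 16.8 and 14.8 TPM and, by a small margin, Fzd3 at 5.23, 6.92, 6.90 and 5.41 TPM. Among receptors for Wnt5a, Fzd7 stood at 39.4, 33.8, 36.2 and 37.3 TPM, Ror2 at 16.8, 14.1, 15.5 and 15.6 TPM and Ror1 at 7.83, 8.92, 7.12 and 10.1 TPM.

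Some genes of antigen-presenting cells and B cells, also chosen after seeing Cd74, were highest in control 4, whereas the list of macrophages and leukocytes summed to 492, 373, 443 and 519 TPM, with control 6 highest. The class II genes H2-Aa, H2-Ab1 and H2-Eb1 stood at 2.09, 1.01, 9.28 and 2.03, at 3.99, 1.55, 12.4 and 2.65 and at 4.07, 2.08, 12.9 and 3.27 TPM. Igkc, an immunoglobulin light chain gene, stood at 7.21, 7.80, 27.5 and 4.43 TPM and Cd79a, of the B cell receptor, at 0.672, 0, 6.84 and 0.156 TPM. Of mast cell proteases, Cma1 stood at 37.5, 23.5, 46.7 and 34.3 TPM and Tpsb2 at 40.2, 20.6, 45.6 and 28.0 TPM. Tpsab1 was at 29.97, 8.70, 37.8 and 11.9 TPM, Cpa3 at 16.5, 11.6, 23.9 and 13.4 TPM and Mcpt4 at 4.53, 4.26, 18.0 and 7.22 TPM. Control 4 was highest and control 3 lowest for all 5. Hdc, a mast cell gene examined with them, was instead highest in control 6, at 1.56, 1.09, 1.44 and 2.03 TPM.

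The hexamer GGGCGG, part of the Sp1 motif, was searched on both strands of RefSeq promoters (GRCm38.p6, 250 bases before to 50 after the start). It was found in 35.4% of all 27025 promoters and in 65.2% of the 10005 that belonged to genes at 1 TPM or more in every control. Of 14110 such gene symbols, those 10005 had a promoter entry. The hexamer was found in 59.2% of 76 promoters of the 100 most abundant multi-exon protein-coding genes, in 50% of 58 of ribosomal proteins, in 60% of 25 of matrix genes of at least 100 mean TPM and in 43.75% of 16 of smooth muscle genes. TATAAA was found in 2.57% and 1.55% of the same sets, all promoters and those of genes at 1 TPM or more in every control.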
